A study of Mus musculus with 27 samples.

Results

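The genes described here are 35 genes of the endoplasmic reticulum (ER) chaperone system and the unfolded protein response, measured by RNA sequencing in mouse T cells. They were the rows of the count table whose gene symbol is on a list of 35 names. Each name matched 1 row, so the list covers 35 of the 26802 genes in the table, and 34 of the 10493 genes that passed the filter on low counts. Wfs1, which encodes the ER membrane protein wolframin, did not pass, with 99 counts over all 27 libraries. The rule uses no measured value, but the list was drawn up with earlier results of these data known.

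T cells with the CD4+ or the CD8+ phenotype were taken by negative magnetic selection from pooled lymph nodes and spleen. Raptor KO cells carried the alleles B6-Tg(Cd4-cre)1Cwi-Rptortm1.1Dmsa, Rictor KO cells carried B6-Tg(Cd4-cre)1Cwi-Rictortm1.1Klg, and WT cells were B6-wt, for which no Cre transgene is named. A comparison of KO with WT may therefore include the transgene. The Cd4 promoter drives Cre during thymic development, before the CD4+ and CD8+ lineages separate, so cells of both subsets lose the floxed gene. Raptor is a scaffold that the growth-regulating kinase complex mTORC1 needs, and Rictor has that place in mTORC2. Stimulated cells spent 48 h on plates coated with anti-CD3 and anti-CD28 antibodies at 10 µg/ml, resting cells spent 48 h with the survival cytokine IL-7 at 5 ng/ml, and cells negative for the dead-cell stains MFG-E8 and 7-AAD were then sorted. The 9 groups of 3 libraries were stimulated Raptor KO, stimulated WT, resting Raptor KO and resting WT cells of each subset, and stimulated Rictor KO CD8+ cells. The labels do not give the age of the mice, nor whether the libraries of a group came from separate animals, and the spread behind each p-value may be technical.

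Libraries held 8640699 to 16817347 counts, and 81.1% to 88.4% of them fell on Rn45s, the ribosomal RNA precursor. The remaining 1522199 to 2515583 counts set the precision, and a tested member had a median of 67 counts per library. Levels are given as CPM, each gene's share of the counts left after removing Rn45s, on the usual CPM scale and with TMM scaling of library sizes. Cd4 stood at 171 to 372 CPM in CD4+ libraries and at 0 to 5.49 CPM in CD8+ libraries. Cd8a stood at 82.8 to 403 CPM in CD8+ libraries and at 0 to 4.62 CPM in CD4+ libraries. Rptor had 17.0 to 25.1 CPM in stimulated Raptor KO CD4+ cells, against 23.9 to 30.5 CPM in WT, and Rictor had 38.1 to 40.9 CPM in Rictor KO CD8+ cells, against 36.8 to 49.7 CPM in WT. In both cases the ranges overlapped and the test was not passed (log2 fold changes -0.25 and -0.20). A floxed allele loses part of its gene while these counts cover the whole gene, so they check the genotype labels poorly.

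Proteins that enter the secretory pathway pass through the Sec61 channel into the ER, where chaperones of the Hsp70 and Hsp90 families, the lectins calnexin and calreticulin, and disulfide isomerases fold them. Chains that fail to fold are returned to the cytosol and destroyed by ER-associated degradation. When unfolded chains build up, the membrane sensors IRE1 (encoded by Ern1), PERK (Eif2ak3) and ATF6 start the unfolded protein response: IRE1 splices the mRNA of the transcription factor XBP1, ATF6 is cut to release a transcription factor, and PERK phosphorylates the translation factor eIF2alpha, which favours translation of ATF4. T cells enlarge their ER when they are activated and begin to secrete cytokines. Gene-level counts do not show splicing of Xbp1, cleavage of ATF6 or phosphorylation of PERK, so none of these steps was measured.

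ATF6 and XBP1 act on ER stress response elements in promoters, which are printed here as a sequence feature of some of these genes. The genes were listed as known members of this system, so the shares below describe them and test nothing. RefSeq promoter windows (build GRCm38.p6, 250 bases before to 50 bases after the annotated start) were at hand for 28 of the 35 genes, and both strands were searched. The element known as ERSE was searched as CCAAT, then 9 bases of any kind, then CCACG. It was in 8 of the 28 windows (28.6%) and in 37 of 27025 genes with a window (0.137%, or 0.119% of all 32851 windows). The matches, in capitals, with 10 bases on each side, lay in Hspa5, Hsp90b1 (a pair of copies), Dnajc3, Calr, Canx, Pdia6, Creld2 and Syvn1, and each is shown 5′ to 3′ on the strand that reads CCAAT first.
Hspa5 (chr2:34772015-34772053, plus strand): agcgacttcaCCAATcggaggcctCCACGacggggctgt
Hsp90b1 (chr10:86705628-86705666, minus strand): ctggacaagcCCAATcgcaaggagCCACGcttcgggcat
Hsp90b1 (chr10:86705523-86705561, plus strand): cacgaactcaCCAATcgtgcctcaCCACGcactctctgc
Dnajc3 (chr14:118937817-118937855, plus strand): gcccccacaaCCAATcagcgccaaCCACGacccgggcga
Calr (chr8:84847065-84847103, plus strand): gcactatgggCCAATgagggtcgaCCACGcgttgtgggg
Canx (chr11:50325790-50325828, minus strand): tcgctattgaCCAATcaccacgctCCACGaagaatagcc
Pdia6 (chr12:17266481-17266519, plus strand): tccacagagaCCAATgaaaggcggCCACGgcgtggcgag
Creld2 (chr15:88819510-88819548, minus strand): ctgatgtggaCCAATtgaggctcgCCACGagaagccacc
Syvn1 (chr19:6046522-6046560, plus strand): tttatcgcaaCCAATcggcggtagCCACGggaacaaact

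A second element, ERSE-II, was searched as ATTGG, 1 base of any kind, then CCACG. It was in 2 of the 28 windows (7.14%), those of Dnajb11 and Herpud1, and in 12 of the 27025 genes (0.0444%).
Dnajb11 (chr16:22857842-22857872, plus strand): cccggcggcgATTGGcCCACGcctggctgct
Herpud1 (chr8:94386367-94386397, plus strand): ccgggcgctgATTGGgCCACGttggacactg

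Herpud1 was also the single gene of the 28 (3.57%) with an ATF4-type site, searched as TGATG, 1 base of any kind, then AA, which 4.51% of genes with a window hold. Its whole window is printed because it holds both elements and because Herpud1 was lower in Raptor KO cells of both subsets. Capitals mark the ATF4-type site, on the reverse strand, and the ERSE-II match.
Herpud1 (chr8:94386179-94386478, plus strand): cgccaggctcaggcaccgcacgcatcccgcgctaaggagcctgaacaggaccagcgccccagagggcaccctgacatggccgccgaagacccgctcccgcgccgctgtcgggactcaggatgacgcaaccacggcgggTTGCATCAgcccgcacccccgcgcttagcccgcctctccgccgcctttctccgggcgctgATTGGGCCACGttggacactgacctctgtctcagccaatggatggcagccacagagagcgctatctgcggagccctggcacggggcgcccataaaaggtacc
The core of the UPRE element, TGACG followed directly by TGG, was in no member's window and in 0.714% of genes. CCACG alone, which overlaps every ERSE and ERSE-II match, was in 78.6% of the members' windows and in 35.5% of genes. A match is a string of letters, and no binding was measured.

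**Figure D1:**
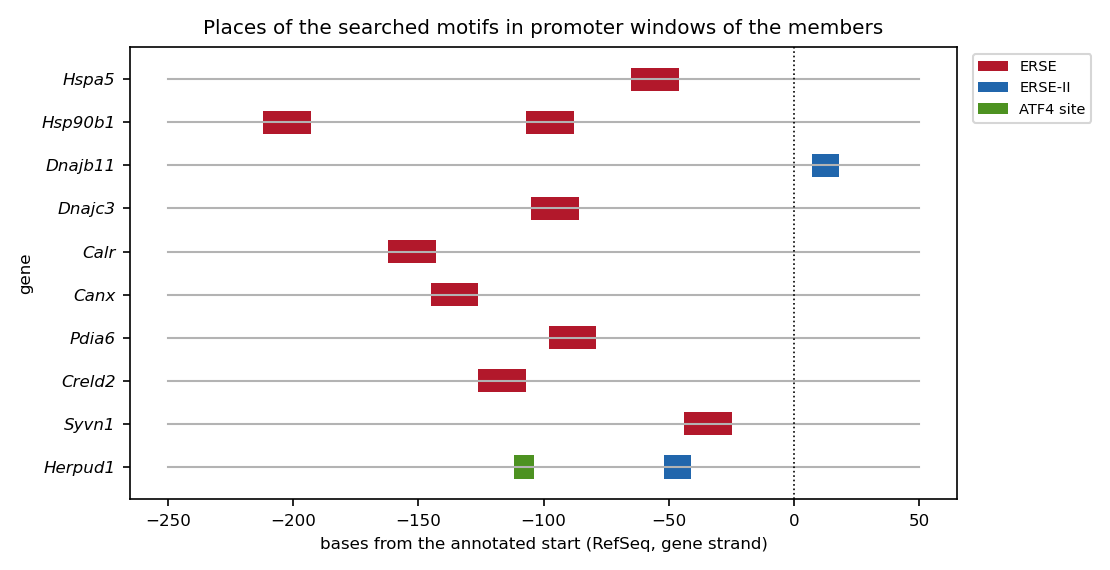
Places of the ERSE (red), ERSE-II (blue) and ATF4-type (green) matches in the promoter windows of 10 genes, in bases from the annotated start on the gene's own strand. Most matches lie within 250 bases before the start, and the ERSE-II match of Dnajb11 lies just after it.

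In stimulated CD4+ cells, loss of Raptor went with lower mRNA of the ER folding machinery. Of the 34 genes tested, 19 were lower in Raptor KO than in WT cells and 0 were higher, while 8.56% of all tested genes were lower and 8.82% higher. A gene passed where edgeR's quasi-likelihood F test gave a Benjamini-Hochberg adjusted p under 0.05 over all 10493 genes. The median log2 fold change was -0.49 over the 34 genes and 0.04 over all tested genes. The 35 genes summed to 2169 ± 41.6 CPM in Raptor KO cells, against 3190 ± 126 CPM in WT cells (SD, n = 3 each), which is 68.0% of the WT level. As a share of protein-coding counts alone they made up 0.536% to 0.555% in Raptor KO cells, against 0.762% to 0.817% in WT cells. These are bulk samples, in which fewer cells of a type and less RNA per cell cannot be told apart.

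In stimulated CD8+ cells the same comparison gave 9 genes lower and 1 higher, against 5.42% of all tested genes lower and 6.30% higher. The median was -0.28 over the 34 genes and 0.03 over all tested genes, and the summed level was 2453 ± 142 CPM in Raptor KO cells, against 2973 ± 143 CPM in WT cells (82.5%). The share of protein-coding counts was 0.549% to 0.613% in Raptor KO cells, against 0.718% to 0.783% in WT cells. Lower in both subsets were Hyou1, Dnajb11, Canx, Sel1l, Herpud1, Derl1, Ssr1 and Ssr2, which are 42.1% of the 19 genes lower in CD4+ cells and 80% of the 10 genes that passed in CD8+ cells. The effect of Raptor loss did not pass the test of a difference between CD8+ and CD4+ cells for any of the 34 genes (edgeR, 0.334% of all tested genes passed). At an unadjusted p under 0.05 that difference counted 6 of them, against 9.35% of all tested genes, and DESeq2 also called 0.

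**Figure D2:**
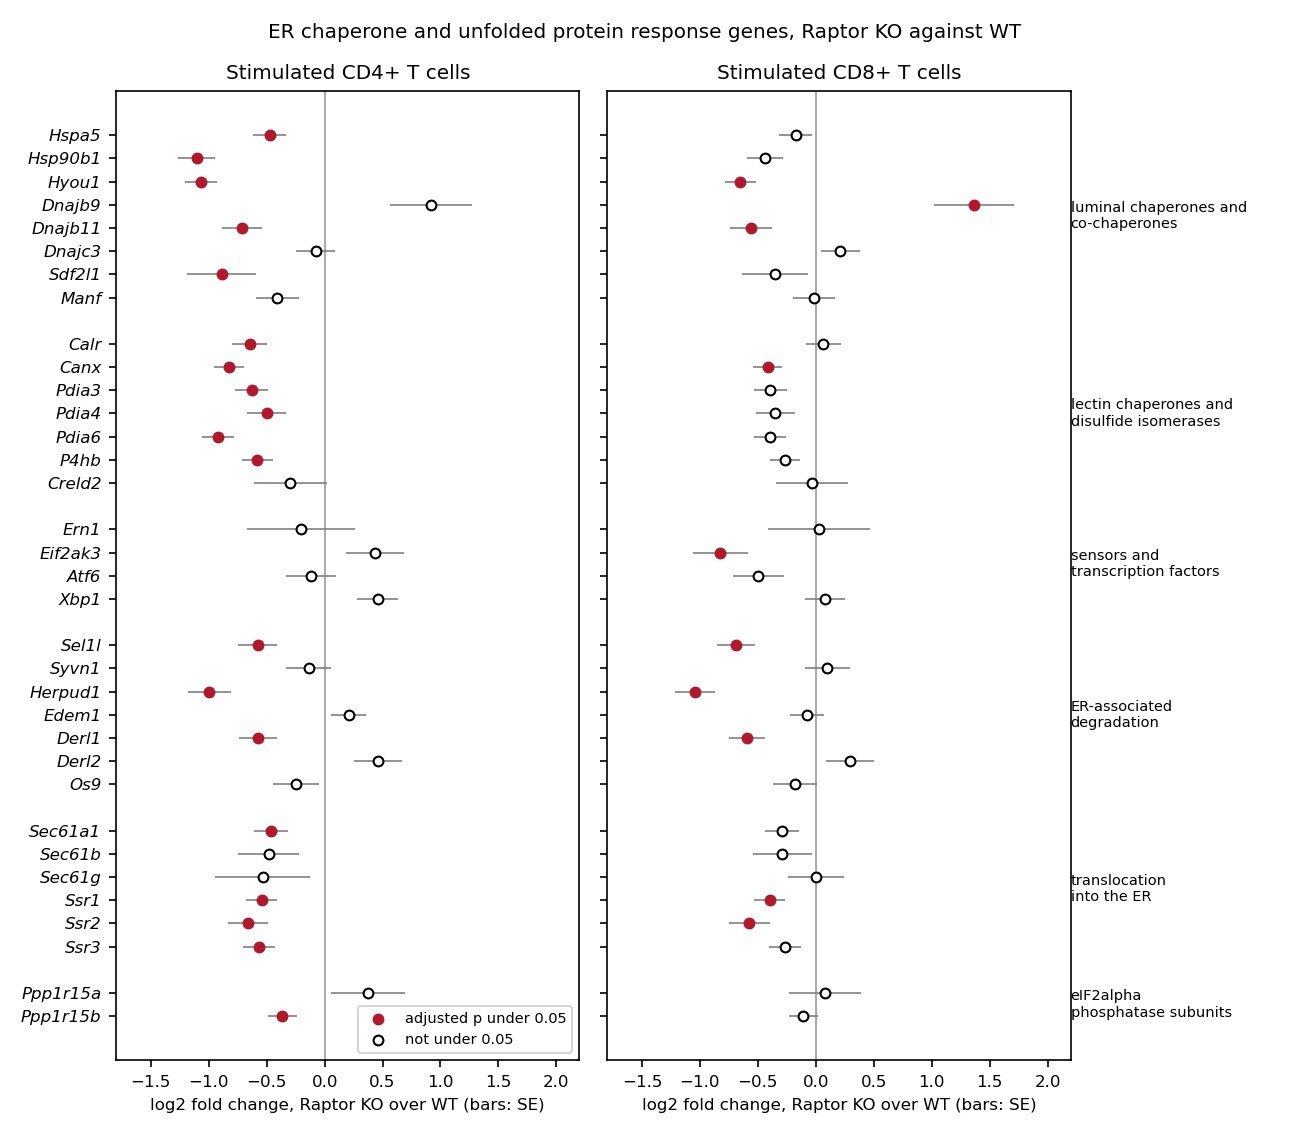
Log2 fold change of each tested gene, Raptor KO over WT, in stimulated CD4+ (left) and CD8+ (right) cells, with bars of 1 SE and filled points for an adjusted p under 0.05. In CD4+ cells the 19 filled points all lie left of 0, while in CD8+ cells 9 lie left of 0 and Dnajb9 lies right at 1.37.

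Several measures moved with the genotype in stimulated cells. Protein-coding counts were 33.4% to 46.5% of the non-Rn45s counts in Raptor KO CD4+ cells, against 38.9% to 63.6% in WT, and 31.8% to 47.8% in Raptor KO CD8+ cells, against 49.9% to 62.5% in WT. Mitochondrial rRNA took 12.7% to 14.6% in Raptor KO CD4+ cells, against 9.16% to 13.0% in WT, and 10.8% to 15.7% in Raptor KO CD8+ cells, against 7.20% to 10.1% in WT. The 10 markers of myeloid cells, of which C1qa has no row and Cd14 was counted in 2 libraries, summed to 41.6 to 50.5 CPM in Raptor KO CD4+ cells, against 20.8 to 28.1 CPM in WT. In CD8+ cells that sum was 62.7 to 69.0 CPM in Raptor KO, against 44.1 to 58.3 CPM in WT. Most of it was Ctss and Cst3, the markers of that list that were abundant enough to test. Ctss was higher in Raptor KO CD4+ cells (log2 1.29), while Cst3 had a mean of 9.68 CPM there, against 10.6 CPM in WT. In CD8+ cells Cst3 had a mean of 24.3 CPM in Raptor KO, against 22.7 CPM in WT. Ctss had 24.0 to 30.5 CPM in WT CD8+ cells and lay above that range in each Raptor KO library, up to 49.4 CPM. The part of these shifts in the results was not tested, except that the 19 and 9 genes lower in Raptor KO cells were all among those lower when protein-coding genes alone were scaled and tested, a setting added once results were known. Sdc1, a marker of plasma cells, which are rich in ER, also moved with genotype, and its part in the results was not tested. It had 0, 0.689 and 0 CPM in stimulated Raptor KO CD4+ cells, against 5.84, 5.79 and 6.05 CPM in WT. Sdc1 passed the filter on low counts mainly through these WT libraries, with 9, 13 and 22 counts. Its CD4+ test result was thus partly set in advance and is not given. In stimulated CD8+ cells Sdc1 had 0.837, 0.523 and 0 CPM in Raptor KO, against 4.73, 2.14 and 2.26 CPM in WT (edgeR adjusted p = 0.0348). Jchain was counted in 3 libraries, Derl3 in 14 and Tnfrsf17 has no row. The other counted plasma cell markers did not follow Sdc1 in CD8+ cells. There Prdm1, Derl3 and Jchain had means of 1.43, 0.653 and 0.174 CPM in Raptor KO, against 0.640, 0.131 and 0 CPM in WT. In stimulated CD4+ cells their means were 4.65, 0.190 and 0.190 CPM in Raptor KO, against 5.77, 0.583 and 0 CPM in WT. Together with Prdm1, which activated T cells also make, the plasma cell markers summed to 0 to 10.3 CPM in Raptor KO and 8.53 to 17.8 CPM in WT stimulated CD4+ cells. In stimulated CD8+ cells they summed to 1.96 to 3.66 CPM in Raptor KO and 2.14 to 5.91 CPM in WT.

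Among the luminal chaperones and their cofactors, 5 of 8 were lower in Raptor KO CD4+ cells. Hsp90b1 (ENSMUSG00000020048, GRCm38 chr10:86690209-86705509, minus strand), which encodes GRP94, the ER form of Hsp90, had 124, 103 and 95.9 CPM in Raptor KO CD4+ cells, against 199, 230 and 264 CPM in WT. The groups lay far apart, and the fold was 2.15 lower (log2 -1.10 ± 0.16 SE, edgeR adjusted p = 3.13e-06). In CD8+ cells it had 151, 171 and 123 CPM in Raptor KO, against 185, 177 and 239 CPM in WT, which did not pass (log2 -0.44, adjusted p = 0.0615), but passed under 6 of the 14 alternative settings. Hyou1 (ENSMUSG00000032115, chr9:44379490-44392369, plus strand), the ER member of the Hsp110 family and a nucleotide exchange factor for BiP, had 68.9, 68.2 and 77.5 CPM in Raptor KO CD4+ cells and 151, 151 and 149 CPM in WT. Its Raptor KO level was thus about the same in every library and 2.10-fold lower (log2 -1.07 ± 0.13, adjusted p = 2.47e-07). In CD8+ cells Hyou1 had 89.6, 74.2 and 78.0 CPM in Raptor KO, against 124, 127 and 128 CPM in WT, a 1.57-fold drop (log2 -0.65 ± 0.13, adjusted p = 0.000694).

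Hspa5 (ENSMUSG00000026864, chr2:34771970-34777547, plus strand) encodes BiP, the Hsp70 chaperone that also holds the stress sensors inactive. It had 224, 222 and 230 CPM in Raptor KO CD4+ cells, against 319, 298 and 322 CPM in WT, so the groups did not overlap and the drop was 1.39-fold (log2 -0.47 ± 0.14, edgeR adjusted p = 0.0170). That call was lost without WT library 3, Raptor KO library 1 or Raptor KO library 2 (adjusted p = 0.0583, 0.0562 and 0.0585). CD8+ libraries held 243, 225 and 251 CPM in Raptor KO and 253, 242 and 314 CPM in WT. The CD8+ groups overlapped and the test was not passed (log2 -0.17, adjusted p = 0.474). Dnajb11, the J-protein ERdj3, fell to 26.8, 30.3 and 29.3 CPM in Raptor KO CD4+ cells, against 35.7, 52.6 and 51.2 CPM in WT. Its CD8+ level was 23.4, 25.1 and 24.3 CPM in Raptor KO, against 29.6, 34.8 and 42.4 CPM in WT, a call lost without WT library 3 or without Raptor KO library 1, 2 or 3 (adjusted p = 0.256, 0.0789, 0.0692 and 0.102). Sdf2l1, a partner of ERdj3, had 10.8, 9.65 and 17.9 CPM in Raptor KO and 25.3, 20.5 and 27.0 CPM in WT CD4+ cells (log2 -0.89 ± 0.30, adjusted p = 0.0346), a call lost without WT library 1 or 3 or Raptor KO library 1 or 2 (adjusted p = 0.0549, 0.143, 0.142 and 0.145).

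Dnajb9 (ENSMUSG00000014905, chr12:44205559-44210326, minus strand), the J-protein ERdj4 that helps BiP to repress IRE1, went the other way. Stimulated CD8+ cells had 12.6, 14.1 and 14.9 CPM in Raptor KO, against 3.15, 9.10 and 4.81 CPM in WT. Each Raptor KO library lay above each WT library, and the fold was 2.58 (log2 1.37 ± 0.35, edgeR adjusted p = 0.00608). The adjusted p was 0.0633 without WT library 1 and 0.252 with totals that include Rn45s. In CD4+ cells Dnajb9 had 12.0, 11.0 and 11.8 CPM in Raptor KO, against 9.08, 4.01 and 6.05 CPM in WT. That difference did not pass (log2 0.91, adjusted p = 0.0671), but did without WT library 1 (adjusted p = 0.0427) and with protein-coding genes alone (adjusted p = 0.0478). The other luminal members that did not pass in either subset were Dnajc3, a BiP cofactor (log2 -0.08 in CD4+ and 0.21 in CD8+ cells), and Manf, a secreted BiP-binding protein (-0.41 and -0.01).

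Lectin chaperones and disulfide isomerases were the role with the highest share of lower genes in CD4+ cells, 6 of 7, and 1 of 7 was lower in CD8+ cells. Pdia6 (ENSMUSG00000020571, chr12:17266545-17284770, plus strand), the isomerase P5, had 62.1, 55.8 and 62.8 CPM in Raptor KO CD4+ cells, against 106, 122 and 115 CPM in WT. The fold was 1.90 lower (log2 -0.92 ± 0.14, edgeR adjusted p = 7.43e-06). In CD8+ cells its values were 78.7, 77.4 and 67.8 CPM in Raptor KO and 88.7, 104 and 101 CPM in WT, without overlap but short of the threshold (log2 -0.40, adjusted p = 0.0520), which it passed under 5 of the 14 alternative settings. Canx (ENSMUSG00000020368, chr11:50293961-50325673, minus strand), which encodes the membrane lectin calnexin, had 245, 245 and 243 CPM in Raptor KO CD4+ cells, against 382, 453 and 462 CPM in WT (1.77-fold lower, log2 -0.82 ± 0.13, adjusted p = 1.37e-05). In CD8+ cells Canx had 314, 297 and 280 CPM in Raptor KO, against 392, 374 and 423 CPM in WT (log2 -0.42 ± 0.13, adjusted p = 0.0263). The CD8+ call was lost without WT library 1 or 3 or Raptor KO library 2 or 3 (adjusted p = 0.0637, 0.122, 0.0684 and 0.110).

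The soluble lectin calreticulin, encoded by Calr, had 206, 195 and 207 CPM in Raptor KO CD4+ cells and 321, 297 and 334 CPM in WT (1.56-fold lower, adjusted p = 0.00207). Its CD8+ values overlapped, at 241, 279 and 211 CPM in Raptor KO and 215, 211 and 273 CPM in WT. Pdia3, the isomerase that works with calnexin and calreticulin, P4hb, the classical protein disulfide isomerase, and Pdia4 were lower in Raptor KO CD4+ cells by log2 values of -0.63, -0.58 and -0.50. Their CD8+ log2 values of -0.39, -0.27 and -0.35 did not pass, although Pdia3 passed under 5 of the 14 settings. The CD4+ call of Pdia4 was lost in 5 of the 6 fits that left out 1 library. Creld2 did not pass in either subset.

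The sensors and transcription factors of the response had 0 of 4 tested genes lower in Raptor KO CD4+ cells and 1 of 4 in CD8+ cells. Xbp1 (ENSMUSG00000020484, chr11:5520659-5525893, plus strand) had 69.5, 60.7 and 70.8 CPM in Raptor KO CD4+ cells, against 46.7, 63.3 and 38.0 CPM in WT. The groups overlapped at 1 WT library, number 2, and the test was not passed (log2 0.46, edgeR adjusted p = 0.0629). It passed under 3 of the 14 settings, among them the fit without that library (adjusted p = 0.0125), while scaling to totals that include Rn45s gave a log2 value of -0.01. In CD8+ cells Xbp1 had 59.4, 62.7 and 46.3 CPM in Raptor KO and 50.1, 68.0 and 42.4 CPM in WT, with no difference that passed (log2 0.08). Atf6 had 23.4, 36.5 and 23.6 CPM in Raptor KO CD4+ cells and 31.1, 30.7 and 27.8 CPM in WT. CD8+ libraries of Atf6 held 21.8, 20.9 and 21.2 CPM in Raptor KO and 35.1, 31.0 and 24.6 CPM in WT, which did not overlap but did not pass (log2 -0.50, adjusted p = 0.142).

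Eif2ak3 (ENSMUSG00000031668, chr6:70844515-70905245, plus strand), which encodes PERK, had 15.9, 12.0 and 8.63 CPM in Raptor KO CD8+ cells, against 21.7, 24.1 and 17.0 CPM in WT (1.77-fold lower, log2 -0.83 ± 0.24, edgeR adjusted p = 0.0160). The call was lost without WT library 1 or 2 or Raptor KO library 3 (adjusted p = 0.0575, 0.0610 and 0.182). In CD4+ cells Eif2ak3 had 12.5, 15.2 and 16.5 CPM in Raptor KO and 9.73, 14.7 and 8.81 CPM in WT, which overlapped (log2 0.43, adjusted p = 0.239). The difference between the subsets in the Raptor effect on this gene was -1.26 on the log2 scale, CD8+ minus CD4+, and did not pass (adjusted p = 0.113). Ern1, encoding IRE1, was among the least abundant members. It had 9.11, 6.89 and 5.67 CPM in Raptor KO CD4+ cells and 9.73, 10.7 and 5.50 CPM in WT, and in CD8+ cells 11.7, 12.0 and 4.70 CPM in Raptor KO and 8.28, 12.3 and 6.79 CPM in WT. Wfs1 had 0.570 to 5.51 CPM in Raptor KO and 1.65 to 2.67 CPM in WT stimulated CD4+ cells.

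ER-associated degradation had 3 of 7 genes lower in each subset, and they were Sel1l, Herpud1 and Derl1 both times. Herpud1 (ENSMUSG00000031770, chr8:94386438-94395377, plus strand), which encodes a membrane protein of the degradation complex, had 15.4, 17.9 and 16.5 CPM in Raptor KO CD4+ cells, against 33.7, 36.5 and 29.7 CPM in WT. In CD8+ cells it had 25.1, 20.4 and 20.0 CPM in Raptor KO, against 39.8, 46.0 and 46.7 CPM in WT. The gap between the groups was wide in both subsets, with folds of 1.99 and 2.06 lower (SE 0.18 and 0.17 on the log2 scale, edgeR adjusted p = 0.000148 and 2.61e-05). Hyou1 and Herpud1 passed in both subsets under each of the 14 alternative settings.

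Sel1l, the adaptor of the ubiquitin ligase Hrd1, had 34.2, 37.9 and 24.6 CPM in Raptor KO CD4+ cells, against 45.4, 48.6 and 48.2 CPM in WT (log2 -0.58). CD8+ libraries held 35.2, 27.2 and 44.7 CPM in Raptor KO, against 57.2, 66.9 and 52.0 CPM in WT (log2 -0.69). Derl1, a derlin of the channel through which chains leave the ER, was lower by log2 values of -0.58 and -0.59. For Sel1l the calls were lost without Raptor KO library 3 in CD4+ cells and without Raptor KO library 2 in CD8+ cells (adjusted p = 0.136 and 0.0520), and for Derl1 without the same libraries (0.0929 and 0.0570). Syvn1, which encodes Hrd1 itself, did not pass in either subset, at 22.8, 22.1 and 24.1 CPM in Raptor KO CD4+ cells and 22.7, 24.5 and 27.8 CPM in WT. Derl2, Edem1 and Os9, a second derlin, a mannose-trimming factor and a lectin of the pathway, did not pass in either subset (log2 0.46, 0.21 and -0.25 in CD4+ cells and 0.30, -0.07 and -0.18 in CD8+ cells).

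For entry into the ER, 4 of 6 genes were lower in Raptor KO CD4+ cells and 2 of 6 in CD8+ cells. The genes Ssr1, Ssr2 and Ssr3 encode subunits of the TRAP complex, which assists the Sec61 channel. Ssr2 (ENSMUSG00000041355, chr3:88575876-88588419, plus strand) had 45.6, 45.5 and 47.2 CPM in Raptor KO CD4+ cells, against 63.6, 74.4 and 79.5 CPM in WT (1.58-fold lower, log2 -0.66 ± 0.18, edgeR adjusted p = 0.00664). CD8+ libraries held 49.4, 52.8 and 43.9 CPM in Raptor KO, against 65.0, 71.7 and 79.2 CPM in WT (log2 -0.57 ± 0.17, adjusted p = 0.0235), a call lost without WT library 3 or Raptor KO library 3 (adjusted p = 0.125 both times). Ssr1 was lower in both subsets (log2 -0.54 and -0.40), with the CD8+ call lost in 5 of the 6 fits that left out 1 library. Ssr3 (log2 -0.56) and Sec61a1, the pore subunit (-0.46), were lower in CD4+ cells. Their CD8+ values of -0.27 and -0.29 did not pass, and neither did the difference between the subsets. The call of Sec61a1 was lost without WT library 3 or Raptor KO library 1 or 2 (adjusted p = 0.0718, 0.101 and 0.0646). Sec61b and Sec61g, the small subunits of the channel, did not pass in either subset.

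The phosphatase subunits that reverse the phosphorylation of eIF2alpha differed from each other in level. Ppp1r15b, the constitutive subunit CReP, had 74.6, 91.0 and 94.9 CPM in Raptor KO CD4+ cells, against 117, 113 and 106 CPM in WT (log2 -0.36 ± 0.13, edgeR adjusted p = 0.0423), a call lost in 5 of the 6 fits without 1 library. Ppp1r15a, the stress-inducible subunit GADD34, had 13.1, 17.2 and 14.6 CPM in Raptor KO CD4+ cells and 16.9, 9.80 and 9.63 CPM in WT, and in CD8+ cells 20.9, 9.93 and 13.7 CPM in Raptor KO and 9.85, 20.9 and 11.3 CPM in WT. Those values overlapped in both subsets. Per kilobase of exon, the level in stimulated WT CD4+ cells was 4.12 CPM for Ppp1r15a and 20.0 CPM for Ppp1r15b.

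Of the 19 genes lower in CD4+ cells, 9 passed under each of the 14 alternative settings: Hsp90b1, Hyou1, Dnajb11, Calr, Canx, Pdia3, Pdia6, Herpud1 and Ssr2. Of the 10 that passed in CD8+ cells, 2 did. The count in CD8+ cells fell to 6 without WT library 1, WT library 3 or Raptor KO library 2, and to 5 without Raptor KO library 3. Libraries 1, 2 and 3 of each of these groups carry the codes StP212, StP213 and StP219, and all 19 and all 10 genes had the fitted sign within each code. The genes were called on these same libraries, so those signs were largely set in advance and test nothing. Scaling to totals that include Rn45s moved the median of all tested genes to -0.46 in CD4+ and -0.49 in CD8+ cells, with medians of -1.03 and -0.81 over the 34 genes, and left 10 and 4 genes lower and none higher.

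**Figure D3:**
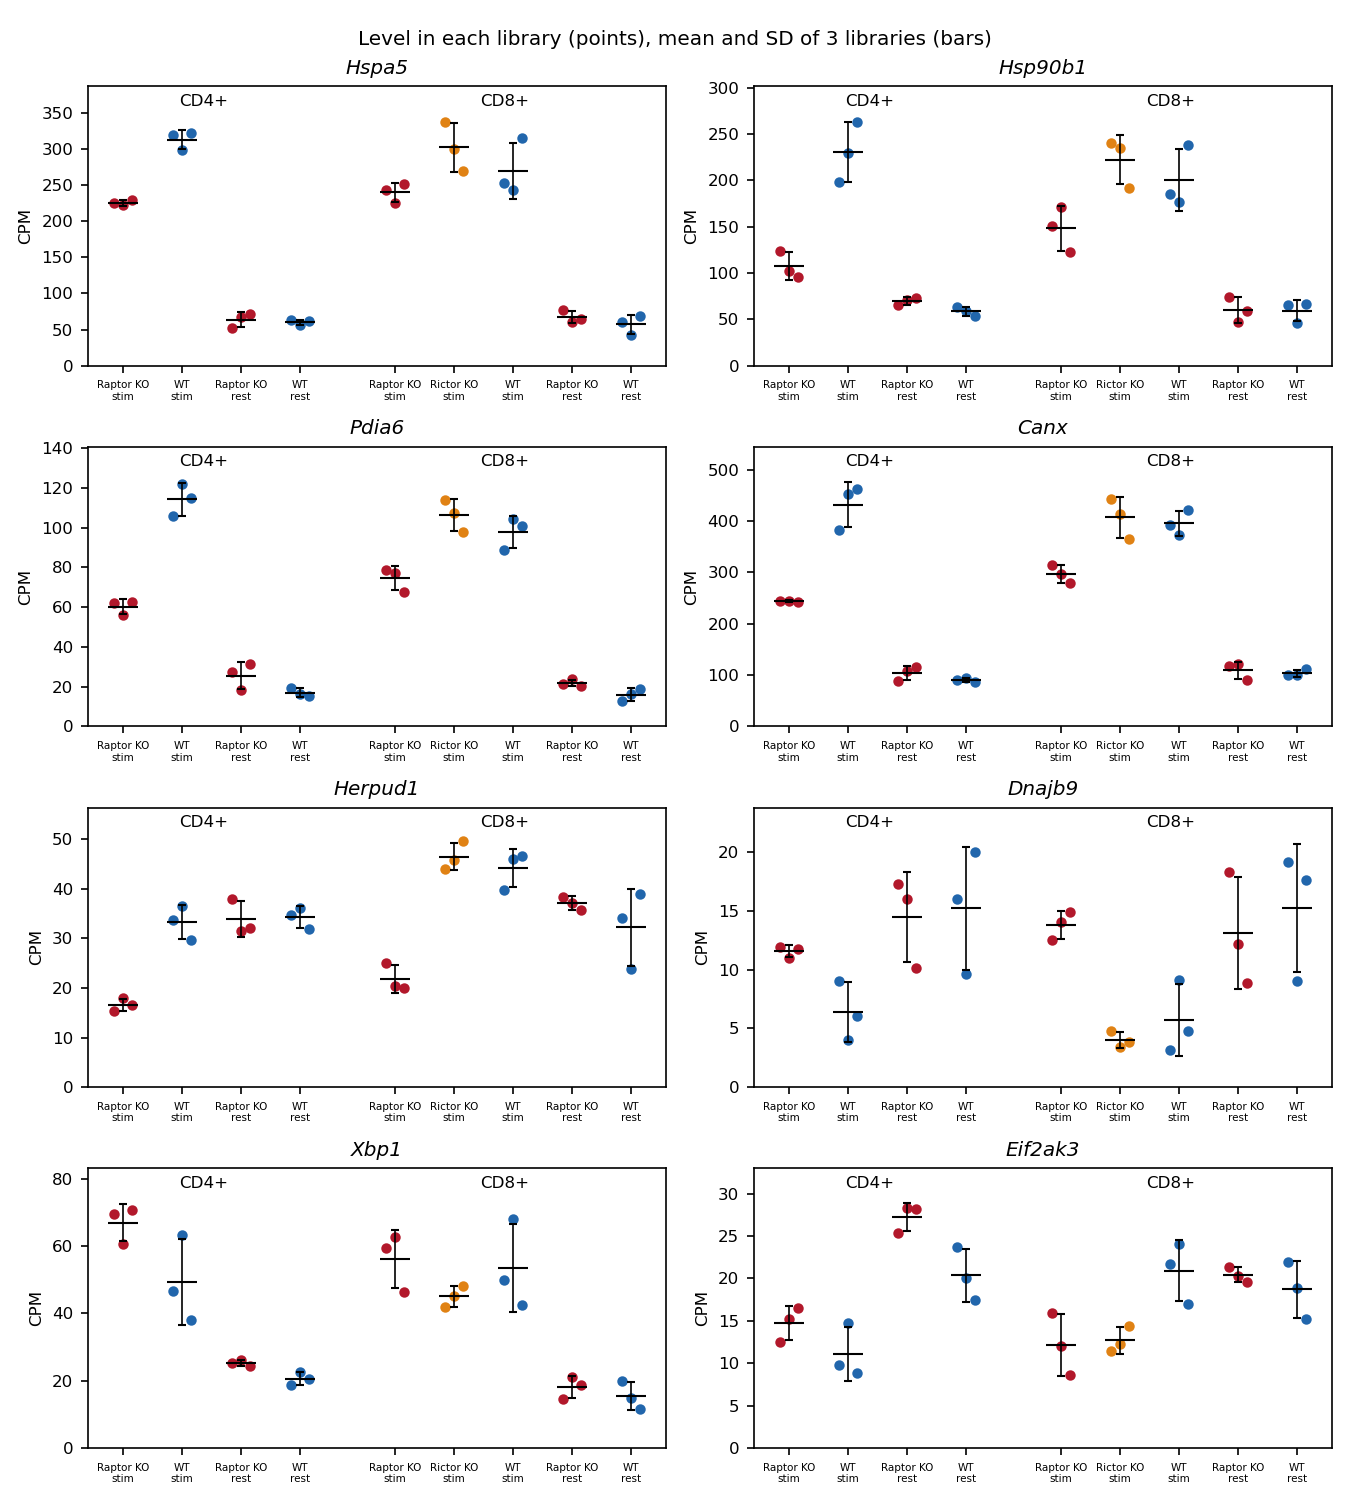
CPM of 8 genes in each library (points), with the mean and SD of 3 libraries (bars), for CD4+ groups on the left of each panel and CD8+ groups on the right, Raptor KO in red, Rictor KO in orange and WT in blue. Hspa5, Hsp90b1, Pdia6 and Canx are high in stimulated cells and lower in stimulated Raptor KO than in stimulated WT CD4+ cells, Herpud1 is lowest in stimulated Raptor KO cells, and Dnajb9 is lowest in stimulated Rictor KO and WT cells.

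Promoter matches were set beside these calls as a description. Of the 8 genes with an ERSE, 5 were lower in Raptor KO CD4+ cells (Hspa5, Hsp90b1, Calr, Canx and Pdia6) and 1 in CD8+ cells (Canx). Of the 17 tested genes with a window and neither element, 7 were lower in CD4+ cells and 3 in CD8+ cells. The pair with an ERSE-II, Dnajb11 and Herpud1, was lower in both subsets. Dnajc3 and Syvn1 hold an ERSE and did not pass in either subset.

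Outside the 35 genes, a list of 61 further genes of the ER lumen and membrane was read from the same fit, of which 57 were tested. It had 13 genes lower and 2 higher in Raptor KO CD4+ cells, beside 8.56% and 8.82% of all tested genes, with a median of -0.14. In CD8+ cells it had 5 lower and 2 higher, beside 5.42% and 6.30%, with a median of -0.18, so the CD8+ counts were near those of all genes. The largest drops in CD4+ cells were in Dad1 (log2 -1.24) and Rpn1 (-0.85), subunits of the oligosaccharyltransferase that attaches N-glycans, and in Mogs (-0.83), which trims them first. Those in CD8+ cells were in Creb3l2 (-2.23), a membrane-bound transcription factor, Ero1l (-1.46), the oxidase that recharges disulfide isomerases, and Rpn1 (-0.53). Dnajc1, an ER J-protein, and Mbtps1, the protease that makes the first cut in ATF6, were higher in both subsets, at log2 values of 0.77 and 0.67 in CD4+ cells and 0.59 and 0.71 in CD8+ cells. All 8 tested genes of the oligosaccharyltransferase were higher in stimulated than in resting WT cells of both subsets. Of all tested genes 32.4% were higher in that comparison in CD4+ and 32.0% in CD8+ cells. Of the 8 genes, 3 and 2 were lower in stimulated Raptor KO than in WT CD4+ and CD8+ cells.

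The branch downstream of PERK, as a list of ATF4 and its known targets, had 6 of 9 tested genes lower in Raptor KO CD4+ cells and 7 of 9 in CD8+ cells, and none higher. Of all tested genes 8.56% and 5.42% were lower. Chac1 and others of the list had few counts outside stimulated WT and Rictor KO cells, and passed the filter on low counts through them. Chac1 had 0 to 6 counts in stimulated Raptor KO libraries, against 25 to 79 in WT, so such calls were partly set in advance. ATF4 is also raised by amino acid shortage and by mTORC1 itself, so these genes do not report on the ER alone. Atf4 had 111, 151 and 112 CPM in Raptor KO CD4+ cells, against 271, 289 and 315 CPM in WT (log2 -1.23 ± 0.17, edgeR adjusted p = 1.06e-06). CD8+ libraries held 167, 169 and 143 CPM in Raptor KO, against 382, 356 and 367 CPM in WT (log2 -1.21 ± 0.17, adjusted p = 1.09e-06). Trib3, a pseudokinase induced by ATF4, had 2.28, 0.689 and 0.945 CPM in Raptor KO CD4+ cells, against 9.73, 13.8 and 9.63 CPM in WT, and 1.67, 2.09 and 1.18 CPM in Raptor KO CD8+ cells, against 21.7, 36.4 and 19.2 CPM in WT. Chac1, a glutathione-degrading enzyme, had 0.570, 0 and 0 CPM in Raptor KO CD4+ cells, against 16.2, 19.6 and 16.0 CPM in WT. In CD8+ cells Chac1 had 2.51, 3.14 and 0.784 CPM in Raptor KO, against 31.1, 25.7 and 20.9 CPM in WT. Ddit3, which encodes the factor CHOP, stood at 1.18 to 11.8 CPM in stimulated Raptor KO and WT libraries and did not pass in either subset (log2 0.43 and -1.57, adjusted p = 0.652 and 0.0568).

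Stimulation itself raised most of the ER folding genes. In WT CD4+ cells 22 of 34 were higher and 6 lower in stimulated than in resting cells, beside 32.4% of all tested genes higher and 32.5% lower, and the median log2 fold change was 1.32 against -0.03 over all tested genes. In WT CD8+ cells 23 were higher and 3 lower (32.0% and 30.8% of all tested genes), with a median of 1.16. The summed level was 3190 ± 126 CPM in stimulated WT CD4+ cells, against 1248 ± 64.3 CPM in resting ones, and 2973 ± 143 CPM in stimulated WT CD8+ cells, against 1289 ± 79.9 CPM in resting ones. Protein-coding counts took 38.9% to 63.6% of non-Rn45s counts in stimulated WT CD4+ cells, against 27.6% to 45.2% in resting ones. In WT CD8+ cells they took 49.9% to 62.5%, against 24.2% to 33.0%. The part of this shift was not tested. Of protein-coding counts alone, the 35 genes were 0.329% to 0.351% in resting WT CD4+ cells and 0.328% to 0.365% in resting WT CD8+ cells. Stimulated WT cells had 0.762% to 0.817% (CD4+) and 0.718% to 0.783% (CD8+). All 7 lectin chaperones and disulfide isomerases, 6 of 8 luminal chaperones and 5 of 6 translocation genes were higher in both subsets. In Raptor KO cells 19 genes were higher and 5 lower in CD4+ cells (27.9% and 24.1% of all tested genes), with a median of 0.67. In Raptor KO CD8+ cells 20 were higher and 4 lower (29.5% and 26.0%), with a median of 1.03.

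Hspa5 had 319, 298 and 322 CPM in stimulated WT CD4+ cells, against 62.6, 56.2 and 61.1 CPM in resting ones (log2 2.38 ± 0.15, edgeR adjusted p = 4.88e-17). The largest log2 values in WT cells were those of Sdf2l1, at 2.88 in CD4+ and 3.25 in CD8+ cells, where resting WT levels were 0 to 5.81 CPM. In CD4+ cells Pdia6 was next, with 106, 122 and 115 CPM in stimulated WT CD4+ cells, against 19.5, 16.1 and 15.4 CPM in resting ones (log2 2.76 ± 0.17, adjusted p = 5.44e-18). Atf6 was the sensor that rose most, with 31.1, 30.7 and 27.8 CPM in stimulated WT CD4+ cells, against 6.26, 9.68 and 5.14 CPM in resting ones (log2 2.09), and a log2 value of 2.81 in CD8+ cells. Xbp1 rose by 1.24 and 1.78. Ern1 did not pass in either subset, while Eif2ak3 fell in CD4+ cells, with 9.73, 14.7 and 8.81 CPM in stimulated WT cells, against 23.7, 20.0 and 17.5 CPM in resting ones (log2 -0.88), and did not pass in CD8+ cells (0.14).

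Genes that fell with stimulation were Dnajb9 and Derl2 in WT cells of both subsets. Dnajb9 had 9.08, 4.01 and 6.05 CPM in stimulated WT CD4+ cells, against 16.0, 9.68 and 20.0 CPM in resting ones (log2 -1.32 ± 0.34, edgeR adjusted p = 0.000935). In CD8+ cells it had 3.15, 9.10 and 4.81 CPM in stimulated WT cells, against 19.2, 9.03 and 17.7 CPM in resting ones (log2 -1.51 ± 0.35, adjusted p = 0.000282). Ppp1r15a, Eif2ak3, Edem1 and Os9 also fell in WT CD4+ cells, and Dnajc3 in WT CD8+ cells. Of the genes of ER-associated degradation, 1 rose and 3 fell in WT CD4+ cells and 3 rose and 1 fell in WT CD8+ cells. Of the 8 genes with an ERSE, 6 rose in WT cells of each subset, all but Dnajc3 and Syvn1. Of the 17 tested genes with a window and neither element, 8 rose and 6 fell in WT CD4+ cells. In WT CD8+ cells 9 of them rose and 2 fell. Of all tested genes 32.4% rose in WT CD4+ and 32.0% in WT CD8+ cells.

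Compared per kilobase of exon, the most abundant of these mRNAs in stimulated WT CD4+ cells were Calr at 110 CPM, Canx at 92.1, Hspa5 at 74.0 and P4hb at 73.2. The least abundant tested genes were Ern1 at 1.06 CPM and Eif2ak3 at 1.84. In stimulated Raptor KO CD4+ cells Calr stood at 70.4 CPM per kilobase, Hspa5 at 53.3, Canx at 52.1 and P4hb at 48.9, so the same 4 genes led.

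**Figure D4:**
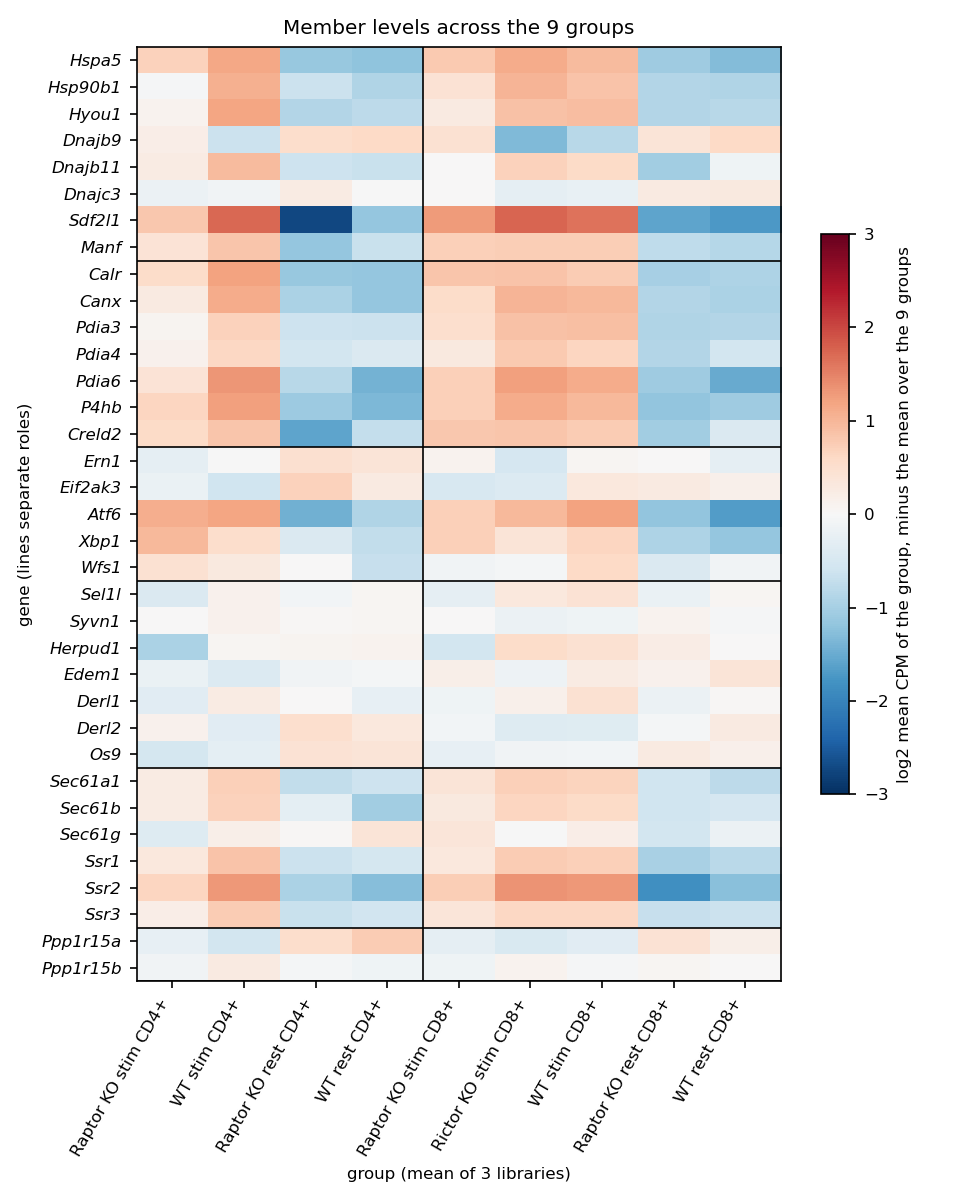
Log2 mean CPM of each gene in each group of 3 libraries, minus the gene's mean over the 9 groups, with lines between roles and between subsets. Most folding and translocation genes are red in stimulated and blue in resting groups and paler red in stimulated Raptor KO groups, Dnajb9 runs the opposite way, and Dnajc3 and Sec61g do not follow the pattern, while the degradation genes vary little, with Herpud1 lowest in stimulated Raptor KO cells.

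Whether stimulation acted differently on these genes without Raptor was tested as the difference of the stimulation effects, Raptor KO minus WT. In CD4+ cells 7 genes passed with a negative difference and 0 with a positive one. Of all tested genes 2.25% and 3.57% did so. The 7 genes were Pdia6 (-1.49 ± 0.24), Hsp90b1 (-1.36 ± 0.23), Canx (-1.02 ± 0.19), Herpud1 (-0.98 ± 0.26), Hyou1 (-0.97 ± 0.21), Derl1 (-0.83 ± 0.23) and P4hb (-0.82 ± 0.21, log2 difference ± SE, edgeR adjusted p from 8.32e-05 for Pdia6 to 0.0266 for Derl1). For Pdia6 the stimulation effect was 1.26 in Raptor KO and 2.76 in WT cells, and for Hsp90b1 0.62 in Raptor KO and 1.98 in WT cells. Stimulation lowered Herpud1 in Raptor KO cells (-1.03, edgeR adjusted p = 1.83e-05) and did not pass in WT cells (-0.05). Derl1 had a mean of 35.6 CPM in stimulated Raptor KO CD4+ cells, against 45.3 CPM in resting ones, which did not pass. In WT CD4+ cells it had 53.0 CPM in stimulated cells, against 37.7 CPM in resting ones. A negative difference was therefore not always a smaller effect. In CD8+ cells 1 gene passed (1.19% of all tested genes were lower), again Herpud1, with a log2 difference of -1.23 ± 0.25 (adjusted p = 0.00210), made up of -0.79 in Raptor KO and 0.43 in WT cells. Leaving out WT stimulated CD4+ library 1 raised the CD4+ count to 11, and totals that include Rn45s gave 0 in both subsets. In CD8+ cells median-ratio scaling and protein-coding genes alone gave 2 genes each.

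**Figure D5:**
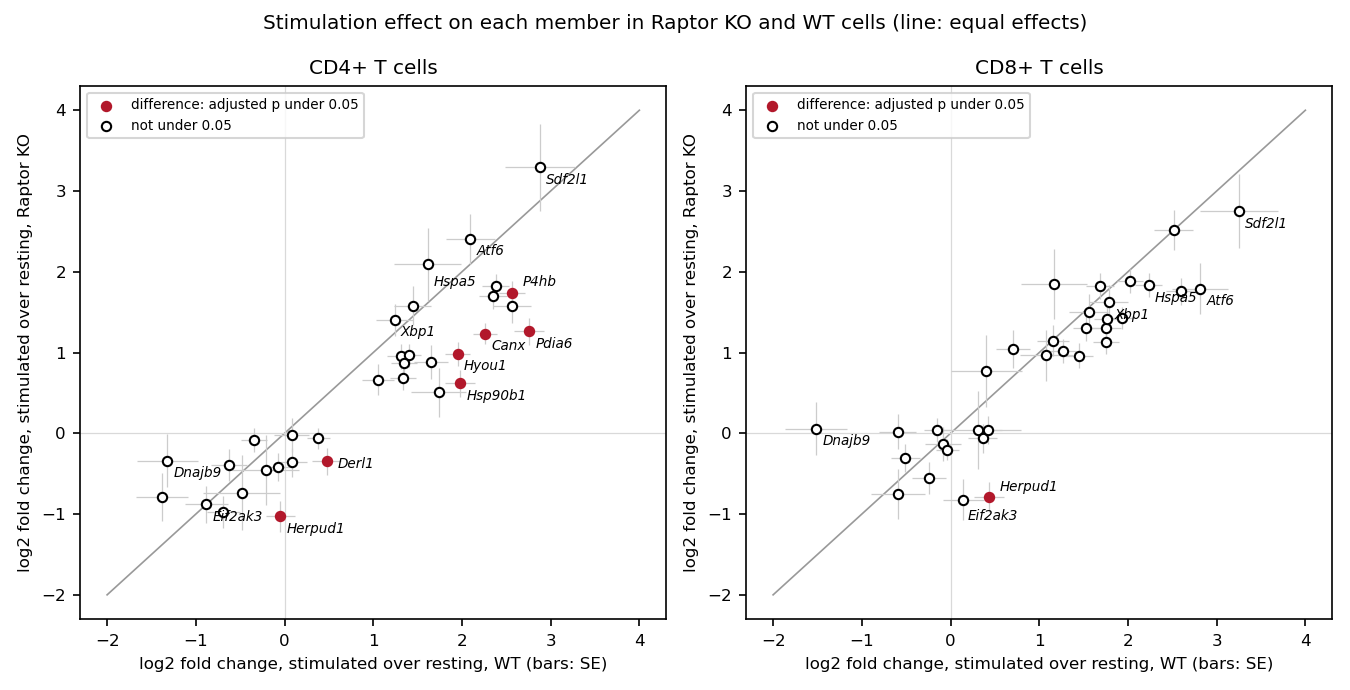
Log2 fold change of each gene, stimulated over resting, in Raptor KO cells (vertical axis) against WT cells (horizontal axis), with bars of 1 SE, for CD4+ (left) and CD8+ (right) cells. Filled points, 7 in CD4+ and 1 in CD8+ cells, have a difference with an adjusted p under 0.05, and all lie below the line of equal effects.

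At rest none of these genes passed between the genotypes in the fit over all libraries. In resting CD4+ cells 0 of 34 genes passed (edgeR, 0.143% of all tested genes passed), 2 had an unadjusted p under 0.05 (7.78% of all tested genes), and DESeq2 also called 0. In resting CD8+ cells 0 of 34 passed (1.12% of all tested genes), 1 had an unadjusted p under 0.05 (9.86% of all tested genes), and DESeq2 again called 0. That gene was Dnajb11, at 12.2, 11.5 and 11.6 CPM in Raptor KO cells, against 24.1, 20.5 and 21.3 CPM in WT (log2 -0.90 ± 0.24, adjusted p = 0.0507). Under 2 of the alternative settings 1 of 34 genes passed in resting CD8+ cells. The summed level was 1301 ± 57.5 CPM in resting Raptor KO CD4+ cells, against 1248 ± 64.3 CPM in WT, and 1254 ± 103 CPM in resting Raptor KO CD8+ cells, against 1289 ± 79.9 CPM in WT.

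Loss of Rictor, tested in stimulated CD8+ cells, gave 0 of 34 genes past the threshold (edgeR, 0.162% of all tested genes passed). An unadjusted p under 0.05 was reached by 3 genes (6.03% of all tested genes), DESeq2 also called 0, and the log2 fold changes ranged from -0.71 to 0.16. The smallest adjusted p was that of Eif2ak3, 0.275, with 11.4, 12.2 and 14.4 CPM in Rictor KO cells and 21.7, 24.1 and 17.0 CPM in WT, which did not overlap. The summed level was 3031 ± 185 CPM in Rictor KO cells and 2973 ± 143 CPM in WT cells. All 3 Rictor KO libraries carry the code StP219, which 1 WT and 1 Raptor KO library share.

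Set against Raptor KO CD8+ cells directly, Rictor KO cells had 11 genes higher and 1 lower (7.00% and 8.30% of all tested genes). Herpud1 had 44.1, 45.9 and 49.6 CPM in Rictor KO cells, against 25.1, 20.4 and 20.0 CPM in Raptor KO cells (2.16-fold, log2 1.11 ± 0.17, edgeR adjusted p = 5.42e-06). Hyou1 had 121, 123 and 126 CPM in Rictor KO cells, against 89.6, 74.2 and 78.0 CPM in Raptor KO cells (1.54-fold). Dnajb9 was the gene that was lower, at 4.76, 3.45 and 3.85 CPM in Rictor KO cells, against 12.6, 14.1 and 14.9 CPM in Raptor KO cells (3.46-fold lower, log2 -1.79 ± 0.35, adjusted p = 0.000311). The other 9 higher genes were Hsp90b1, Dnajb11, Canx, Pdia4, Pdia6, P4hb, Sel1l, Ssr1 and Ssr2. The count of 12 fell to 6 without Raptor KO library 3, to 6 with code StP219 alone in the compared groups, a comparison added later with the results known, and to 1 with totals that include Rn45s. This comparison and that of Raptor KO with WT share the Raptor KO libraries.

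Between the subsets themselves, the count of genes that passed in stimulated WT cells was near the share of all tested genes. In stimulated WT cells 2 of 34 genes passed (5.18% of all tested genes), both higher in CD8+ cells: Eif2ak3, at 21.7, 24.1 and 17.0 CPM in CD8+ cells, against 9.73, 14.7 and 8.81 CPM in CD4+ cells (log2 0.91, edgeR adjusted p = 0.00889), and Edem1, at 176, 155 and 119 CPM in CD8+ cells, against 96.0, 108 and 85.3 CPM in CD4+ cells (log2 0.64, adjusted p = 0.00354). The count was 1 without WT CD4+ library 3, WT CD8+ library 1 or WT CD8+ library 2, and 0 with totals that include Rn45s. In resting WT cells 0 passed (3.33% of all tested genes), 2 had an unadjusted p under 0.05 (13.2% of all tested genes), and DESeq2 also called 0. The stimulation effect in WT cells, CD8+ minus CD4+, gave 0 genes past the threshold (1.44% of all tested genes), 7 with an unadjusted p under 0.05 (11.8% of all tested genes) and 0 by DESeq2. Across the 9 groups the summed level was highest in stimulated WT CD4+ cells (3190 ± 126 CPM). Stimulated Rictor KO (3031 ± 185 CPM) and WT CD8+ cells (2973 ± 143 CPM) came next. Stimulated Raptor KO CD8+ and Raptor KO CD4+ cells followed, and the 4 resting groups were lowest, spanning 1248 to 1301 CPM.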

How the data were processed

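RNA of 27 mouse T-cell libraries in 9 groups of 3 was sequenced from 3′ ligated adapters. The authors deposited 1 table of whole-number counts per gene, aligned with STAR 2.6.0a to GRCm38 per the submitters' processing notes. Which counter, annotation and strand option were used is not given in the sources used here, so reads of a gene and of an antisense, overlapping or near-identical gene cannot be told apart.

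Groups came from the sample labels. Rn45s was left out before TMM scaling. One edgeR 4.0.16 quasi-likelihood model (R 4.3.3, robust) with a mean per group was fitted over all libraries to the 10493 genes kept by filterByExpr (minimum count 10, total 15), and Benjamini-Hochberg adjustment at 0.05 ran over all of them in each of 16 comparisons. SE is the absolute log2 fold change over the square root of F. CPM used effective library sizes. The common biological coefficient of variation was 0.187, which comes on top of counting error. The steps were tested on simulated data. Of 26802 genes, 26753 matched the annotation used for lengths, positions and biotypes. No pair of libraries agreed within counting noise (chi-square per degree of freedom from 2.44).

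The members and all lists were chosen with earlier results of these data known. Every member could be named. Values per library were for members with the largest change in each role, the sensors, Hspa5 and Ppp1r15a, with further members added after their values were seen, and from the other ER genes up to 3 per direction and subset. Alternatives were median-ratio scaling, totals with Rn45s, no filter, a filter of over 5 CPM in 3 libraries, the compared groups alone, a replicate block, DESeq2 1.42.0, leaving out each library and, added after seeing the data, protein-coding genes alone and code StP219 alone. Promoter windows were those of RefSeq.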

Additional observations from a re-analysis of the deposited data

Results flagged for a closer look

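The effect of stimulation differed between Raptor KO and WT cells for 7 genes in CD4+ cells and 1 in CD8+ cells, by the test of the difference itself (edgeR, adjusted p under 0.05). In CD4+ cells the log2 difference, Raptor KO minus WT, was -1.36 for Hsp90b1, -0.97 for Hyou1, -1.02 for Canx, -1.49 for Pdia6, -0.82 for P4hb, -0.98 for Herpud1 and -0.83 for Derl1. In CD8+ cells it was -1.23 for Herpud1. All 8 differences were negative, and with totals that include Rn45s none of the 34 genes passed in either subset.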

How the results depend on the processing

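In stimulated Raptor KO against WT cells no called gene changed sign under any setting tried. Over the log2 fold changes of single genes in those 2 comparisons, 866 fits kept the side of the threshold, 65 lost a call and 21 gained one. Counts of genes that passed moved by over 1.5 times as follows. Totals with Rn45s gave 10 for Raptor KO against WT in stimulated CD4+ cells and 4 in CD8+ cells, 1 for Rictor KO against Raptor KO, 13 for stimulation in Raptor KO CD4+ cells, 0 for CD8+ against CD4+ stimulated WT cells, and 0 in both subsets for the difference in stimulation effect between Raptor KO and WT. That scaling also moved the median of all tested genes, so those counts are relative to other totals. For that difference in CD8+ cells (1 gene), median-ratio scaling gave 2 and protein-coding genes alone 2. Protein-coding genes alone gave 1 for the genotypes in resting CD8+ cells and 1 for CD8+ against CD4+ resting WT cells. The compared groups alone gave 1 for resting and 1 for stimulated WT cells, CD8+ against CD4+. Code StP219 alone gave 6 for Rictor KO against Raptor KO. The cause was not tested.

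Libraries of the same number share a code but no stated animal or day, and the Rictor KO libraries have code StP219 at every number. Correlations of their deviations from group means ran from -0.178, in a Rictor KO comparison, to 0.367, and in no comparison were all 3 over 0.1. In comparisons without Rictor KO cells most exceeded the mean correlation with the other numbers. For number 3, CD8+ against CD4+ stimulated WT cells, the values were 0.367 and -0.186. The main fit has no term for the code, which the replicate block adds. The replicate block gave 1 for the genotypes in resting CD8+ cells and 3 for the difference in stimulation effect in CD8+ cells, and moved no other count by over 1.5 times. With it Xbp1 passed in stimulated CD4+ cells (log2 0.49, edgeR adjusted p = 0.0215).

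Leaving out 1 library gave 14 to 18 genes for Raptor KO against WT in stimulated CD4+ cells, 5 to 10 in CD8+ cells, 6 to 13 for Rictor KO against Raptor KO, 0 to 1 for CD8+ against CD4+ in resting WT cells (1 without CD4+ library 3) and 1 to 3 in stimulated WT cells. The difference in stimulation effect gave 6 to 11 in CD4+ cells and 1 to 2 in CD8+ cells (2 without resting WT library 2 or 3, stimulated WT library 2 or resting Raptor KO library 1). The Raptor effect, CD8+ minus CD4+, gave 0 to 1 (1 without stimulated WT CD4+ library 2), and the WT stimulation effect, CD8+ minus CD4+, gave 0 to 1 (1 without resting WT CD4+ library 3, stimulated WT CD4+ library 1 or stimulated WT CD8+ library 3). Depth limits the members with the fewest counts, Wfs1, Sec61g and Ern1.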
